A study of Rattus norvegicus with 6 samples.

Results

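Genes of glutathione metabolism and of the NRF2 stress response were described in the kidneys of 6 male rats, each measured on 1 Affymetrix Rat Expression Array 230 2.0. The list holds 41 genes: NRF2 and its inhibitor, the enzymes that make, use and break down glutathione, the thioredoxin system, the enzymes that supply NADPH, and the superoxide and peroxide scavengers. A probe set, the group of array probes that reports 1 transcript, was taken where the array annotation gave it exactly 1 gene of the list. This left 48 of the 31042 probe sets tested, for 40 of the 41 genes. Prdx1, a peroxiredoxin, had only a probe set shared with another gene.

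The S group was 3 Dahl salt-sensitive (S) rats, an inbred strain known for hypertension on a salty diet and for proteinuria. The other group was 3 rats of the congenic strain S.LEW(10)x12x2x3x5, which has the S background and carries Lewis (LEW) rat sequence on chromosome 10. All 6 were weaned at 30 days, ate a low-salt (0.3%) diet, shared cages as 1 congenic and 1 S rat each, and were killed at 53 days. The congenic group is a single strain, the extent of its LEW segment was not used here, and the labels do not say which part of the kidney was taken. The study asked about endosomal recycling in the proximal tubule and proteinuria, and the only comparison its design gives is congenic against S.

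NRF2, the product of Nfe2l2, is a transcription factor that the adaptor Keap1 normally holds for degradation through a ubiquitin ligase. Oxidants and electrophiles modify Keap1, and NRF2 then accumulates, pairs with small MAF proteins and binds antioxidant response elements near genes for glutathione synthesis, conjugation and NADPH supply. The proximal tubule, the segment that reabsorbs most of the filtrate, is rich in these enzymes and breaks down filtered glutathione at its brush border.

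All values are log2 intensities unless a fold is named, and a probe set is said to have passed where limma's adjusted p was under 0.05. In the congenic kidney 10 of the 48 member probe sets passed (20.8%), against 6.00% of all probe sets tested. Of these 3 were higher (3.47% of all probe sets were) and 7 lower (2.53% of all). An unadjusted p under 0.05 was seen at 27 of the 48, against 25.4% of all. Nqo1 (1.43-fold), Osgin1 (1.37-fold), the glutathione transferases Gsta3 (1.63-fold), Gsta4 (1.23-fold) and Gstk1 (1.23-fold), Me1 (1.31-fold) and 1 probe set of Ggct (1.78-fold) were lower. The glutathione peroxidases Gpx2 (1.30-fold) and Gpx3 (1.32-fold) and a dim probe set of Keap1 (2.00-fold) were higher. With each gene taken by its brightest probe set, 8 of 40 genes passed (20.0%), against 4.79% of all 14217 genes. These were 2 higher (2.12% of all genes) and 6 lower (2.67% of all). The median change of the 40 genes was -0.08, and that of all genes was -0.03. The members were chosen with earlier results of these data known, so these shares are a description and not a test of the list.

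**Figure D1:**
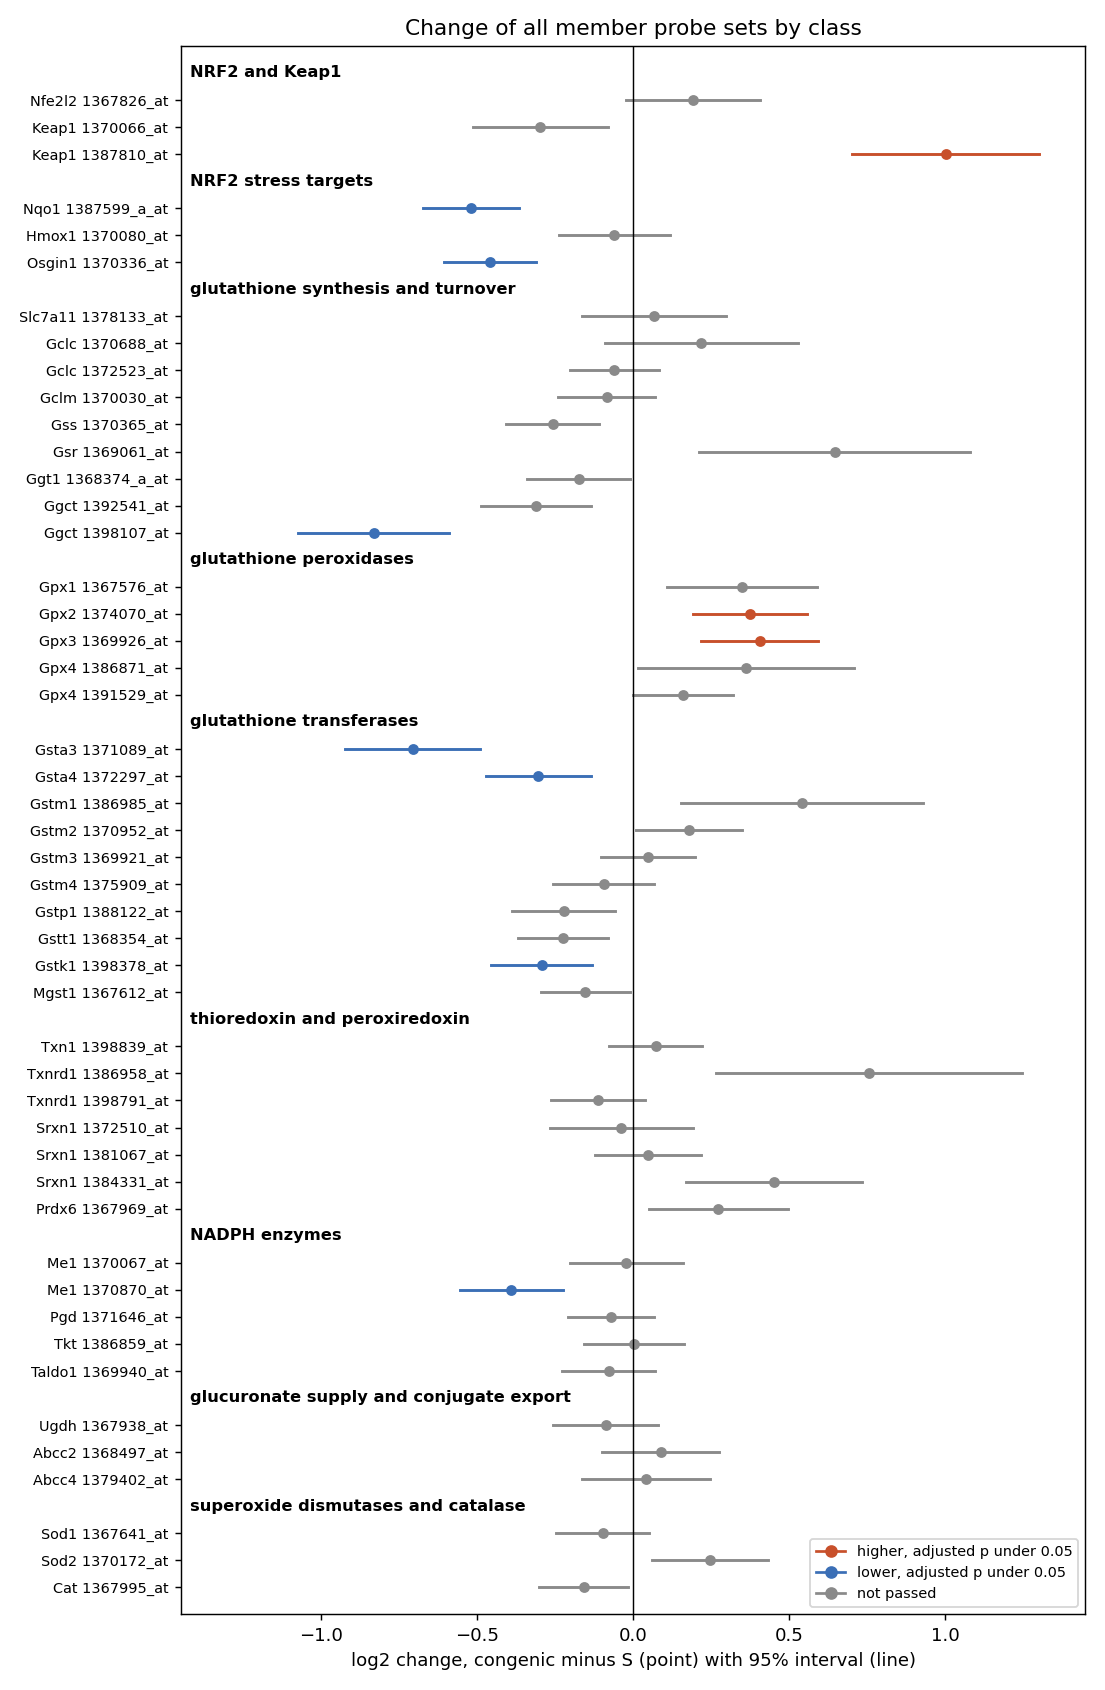
Log2 change (congenic minus S, x axis) of all 48 member probe sets in their classes (y axis), with points for the change and lines for the 95% interval, from 3 rats per group. Peroxidase points all lie to the right of 0, those of Nqo1, Osgin1, Gsta3, Gsta4, Gstk1 and Me1 (1370870_at) lie to the left, and the 2 probe sets of Keap1 fall on opposite sides.

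The number of calls varied with the rat left out. All 10 kept their sign in each of these fits, which was fixed in advance because their groups did not overlap. Leaving out S rat 3 left 0 of the 48 passing in limma (0.00% of all probe sets), with 22 at an unadjusted p under 0.05 (22.4% of all). The same count of 0 followed from leaving out congenic rat 2 (0.00% of all), with 20 at an unadjusted p under 0.05 (18.0% of all), and congenic rat 3 (0.0258% of all), with 23 (17.3% of all). The lowest adjusted p of the 10 called members was then 0.0801, 0.0866 and 0.0936 in turn. Leaving out S rat 1 kept all 10 and raised the count to 21 (15.3% of all). It was 6 when S rat 2 was left out (3.12% of all) and 6 when congenic rat 1 was (1.13% of all). Gpx2, Gpx3, Gsta4 and Gstk1 were lost in both of these last fits, and Me1 in the second.

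The arrays also differed in RNA quality. Its measure was the mean gap by which 3′ controls outshone 5′ controls for beta-actin and Gapdh, which widens as RNA breaks. It lay between 1.56 and 2.10 in S rats, highest in S rat 2, and between 1.01 and 1.26 in congenic rats (two-sided p = 0.1 by exact permutation, which is the lowest value 3 rats against 3 can give). Adding this gap to the limma model left 0 of the 48 passing (0.00% of all), with 8 at an unadjusted p under 0.05 (7.38% of all). In that fit, called the RNA quality fit here, the sign turned at 19 of the 48 member probe sets and at 13704 of all 31042. None of the 19 was among the 10 called members, which were picked for changes that were large against their error. Their kept sign is therefore no separate support, and some were left close to 0, such as Gsta4 at -0.06 ± 0.12 (SE). S rat 2 was the lowest or highest of the 3 S rats at 42 of the 48 member probe sets (87.5%), and at 73.8% of all probe sets. The part of RNA quality in these results was not tested beyond this fit, since the gap itself separates the groups.

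Tissue markers put the samples in the kidney: the proximal tubule genes Miox (14.49 to 14.56 over the 6 rats) and Lrp2 (13.51 to 13.67) and the thick ascending limb gene Umod (14.62 to 14.76) stood near the top of the scale and did not pass. In some marker lists the mean over the markers did not overlap between groups, as was so for 33.4% of single genes by brightest probe set. The means overlapped for the late proximal tubule, thick ascending limb, distal convoluted tubule, principal cell, intercalated cell, podocyte, red blood cell and liver lists. Of all genes, 2.12% were called higher and 2.67% lower. The mean of 12 proximal tubule markers ran from 12.52 to 12.93 in S and from 13.02 to 13.19 in congenic rats, with 2 called higher. Fibroblast markers (6, 3 called higher) ran from 10.76 to 10.89 in S and 11.29 to 11.40 in congenic rats, macrophage markers (7, 4 called higher) from 9.84 to 10.09 and 10.14 to 10.29, endothelial markers (6, 0 called by limma) from 9.06 to 9.19 and 9.25 to 9.28, and adipocyte markers (6, 1 called lower) from 9.32 to 9.92 and 8.86 to 9.29. S rat 2 stood apart at some markers. Calb1, of the distal convoluted tubule, was at 9.38 there, 12.73 in S rat 3 and 13.46 or above in the remaining rats. Nphs1, of podocytes, was at 5.67 there, 6.90 in S rat 3 and 8.27 or above in the remaining rats. The proximal tubule genes went the other way: S rat 2 was the highest S rat at Lrp2 (13.67), Cubn (12.15), Miox (14.56) and Kap (14.99). In whole tissue, fewer cells of a type and less RNA per cell cannot be told apart, and the part of tissue content in the member results was not tested.

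RefSeq promoter sequences (GRCr8) were available for 36 of the 40 measured members, from 250 bases before to 50 bases after each annotated start site. The core of the antioxidant response element, TGACNNNGC, was searched on both strands. It was present for 10 of the 36 members (27.8%) and for 13.1% of all 27457 genes with a promoter in the same table. The list was drawn up around NRF2 targets, so these shares describe it and are no test of it. Among the called members it was present at Gpx2, which was higher, and at Gsta3 and Me1, which were lower, so a match went with both directions. The stretches at these 3 genes and at Gclm, Gstp1 and Txnrd1, commonly cited NRF2 targets of which none passed, are printed 5′ to 3′ on the gene's strand, with the match in capitals, to show the element in members that moved either way or did not pass.
Gpx2: acctggtttcGCTAAGTCAttct
Gsta3: aactcaggcaTGACTTCGCattttttc
Me1: gatgccgccgTGACTCAGCgcttctcgcg
Gclm: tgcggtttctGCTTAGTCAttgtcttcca
Gstp1: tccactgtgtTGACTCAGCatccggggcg
Txnrd1: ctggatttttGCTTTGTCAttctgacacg
They lie at chr6:101230034-101230056 (minus strand), chr9:31154962-31154988 (plus), chr8:96540393-96540421 (minus), chr2:213031953-213031981 (plus), chr1:210769748-210769776 (minus) and chr7:22755964-22755992 (minus). In Gpx2, Gclm and Txnrd1 the match is on the opposite strand and reads GCNNNGTCA here. The matches of Me1 and Gstp1 also hold TGACTCA, the binding motif of AP-1. Anywhere in the window this motif was present for 3 of the 36 members (8.33%) and for 5.04% of all genes with a promoter. Nfe2l2, Sod2, Ugdh and Abcc2 had a match too, and none of them passed. A match of letters is not a measured site, and a window without one says nothing of elements farther away.

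Nfe2l2, which encodes NRF2, stood at 11.46, 11.20 and 11.26 in S rats 1 to 3 and at 11.42, 11.43 and 11.64 in congenic rats 1 to 3. The groups overlapped, and the change of 0.19 ± 0.09 (SE) did not pass (adjusted p = 0.249). Its 95% interval ran from -0.02 to 0.41.

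Keap1, the inhibitor of NRF2, was read by a pair of probe sets that moved oppositely. The brighter (1370066_at) was at 9.75, 10.04 and 9.77 in S and at 9.63, 9.45 and 9.59 in congenic rats. All congenic values were below all S values, as at 18.4% of all probe sets. The change of -0.30 ± 0.09 (SE) did not pass (adjusted p = 0.0941). The dimmer (1387810_at) was at 6.11, 5.73 and 5.94 in S and at 6.77, 6.83 and 7.19 in congenic rats, a rise of 1.00 ± 0.13 (SE, 2.00-fold, adjusted p = 0.0176). In the RNA quality fit the brighter stood at 0.09 and the dimmer at 0.56. The S mean of the dimmer probe set, 5.93, lay near the lower quartile of the arrays (5.88 to 5.96), and no detection call was used, so its fold is uncertain and the 2 readings give no single direction for Keap1.

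Of the 3 stress targets, 2 fell and Hmox1 did not pass, where 2.53% of all probe sets were called lower. Nqo1 encodes a quinone reductase widely used as a readout of NRF2. It was at 9.32, 9.41 and 9.46 in S and at 8.85, 8.85 and 8.93 in congenic rats, a change of -0.52 ± 0.07 (SE, adjusted p = 0.0174). Every congenic value was below every S value, and the SD was 0.07 within S and 0.04 within congenic rats. The RNA quality fit gave -0.47 ± 0.14 (SE, adjusted p = 0.518).

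Osgin1, a growth inhibitor induced by oxidative stress, was at 12.90, 13.03 and 12.96 in S and at 12.50, 12.53 and 12.49 in congenic rats. The congenic values lay within a narrow band below all S values, and the change was -0.46 ± 0.06 (SE, adjusted p = 0.0180), or -0.34 in the RNA quality fit. Hmox1, the inducible heme oxygenase that breaks heme into biliverdin, iron and carbon monoxide, was at 7.77, 7.63 and 7.87 in S and at 7.64, 7.73 and 7.72 in congenic rats. Its groups overlapped (change -0.06, adjusted p = 0.696).

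**Figure D2:**
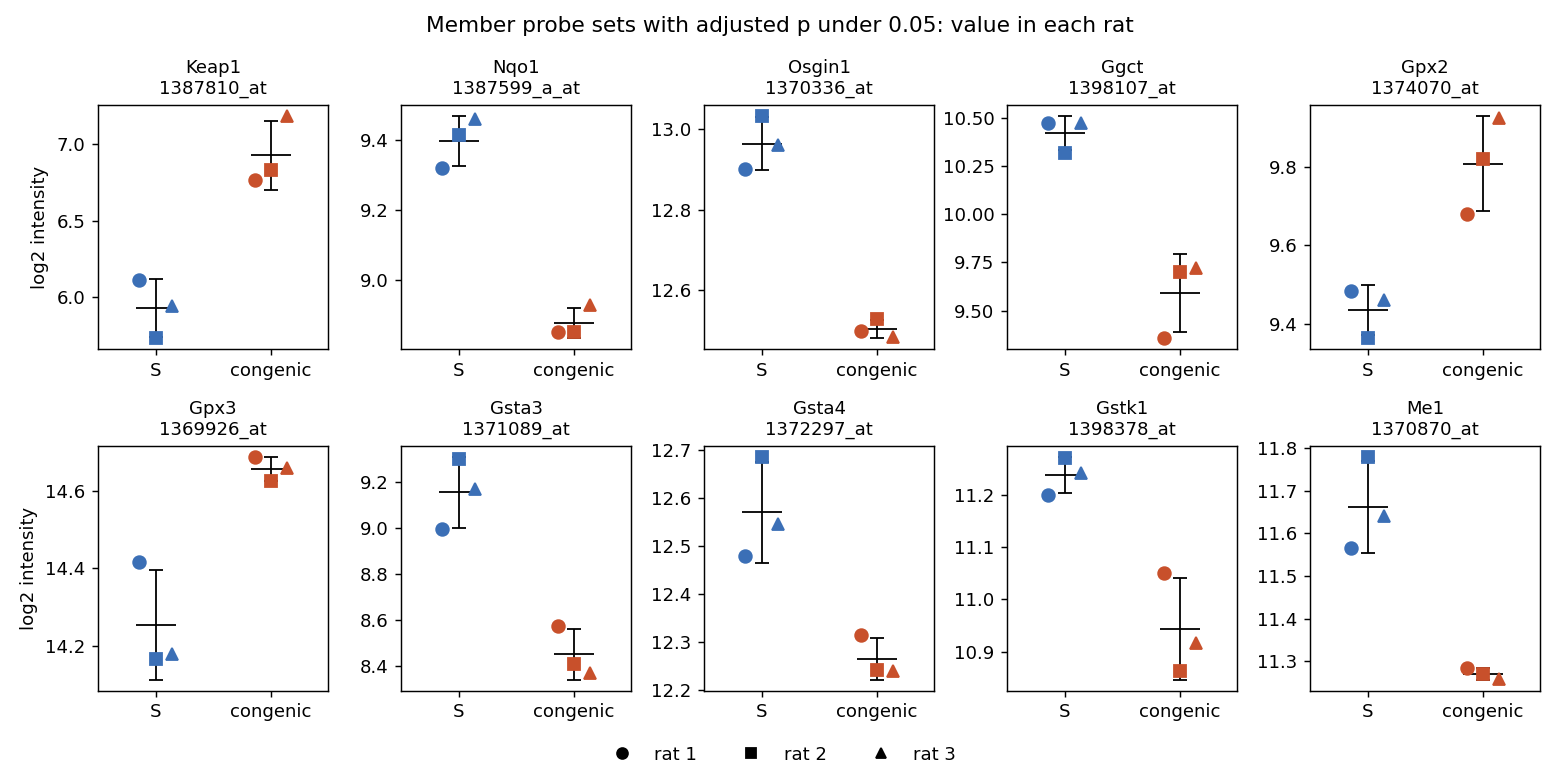
Log2 intensity (y axis, scaled separately in each panel and not starting at 0) in each rat for the 10 member probe sets that passed, by group (x axis), with horizontal bars for the mean and whiskers for the SD of 3 rats. In all 10 panels the S and congenic values do not overlap, as at 31.2% of all probe sets. The panels were picked by adjusted p, so this is no separate support.

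Glutathione is made from glutamate, cysteine and glycine in a pair of steps, and 8 of the 9 probe sets of synthesis and turnover did not pass. Gclc and Gclm encode the catalytic and modifier subunits of the rate-limiting ligase. The brighter Gclc probe set (1372523_at) was at 14.46, 14.36 and 14.42 in S and at 14.33, 14.36 and 14.38 in congenic rats (change -0.06, adjusted p = 0.61), with overlapping groups. The other (1370688_at) stood at 0.22 (adjusted p = 0.363), or 0.05 without S rat 2, which at 13.58 was the lowest of the 6. Gclm stood at -0.09 (adjusted p = 0.495).

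Gss, the synthetase of the second step, stood at -0.26 and just missed the threshold (adjusted p = 0.0535). Its congenic values were all below S, as at 18.4% of all probe sets. Slc7a11, the cystine importer, was dim, at 5.80 to 6.14, and stood at 0.07 (adjusted p = 0.745). Gsr, the reductase that restores glutathione from its oxidised form, was at 8.73, 7.99 and 8.28 in S and at 8.71, 9.21 and 9.02 in congenic rats. Its change was 0.65 ± 0.19 (SE), but the groups overlapped and it did not pass (adjusted p = 0.0776). In the RNA quality fit the sign of Gsr turned (-0.27).

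Ggt1 and Ggct belong to glutathione turnover. Ggt1, the brush-border transferase that cleaves filtered glutathione, was at 14.16, 14.33 and 14.16 in S and at 14.03, 14.02 and 14.08 in congenic rats (change -0.17, adjusted p = 0.174). Ggct, the cyclotransferase that releases oxoproline from gamma-glutamyl peptides, was lower at both of its probe sets in every congenic rat, and 1 of them passed. That one (1398107_at) was at 10.47, 10.32 and 10.48 in S and at 9.36, 9.70 and 9.72 in congenic rats (change -0.83 ± 0.11 SE, adjusted p = 0.0171). The brighter one (1392541_at) was at 12.73, 12.96 and 12.91 in S and at 12.56, 12.60 and 12.51 in congenic rats (change -0.31 ± 0.08 SE, adjusted p = 0.0522). The RNA quality fit put the first at -1.18 and the second at -0.12.

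The member glutathione peroxidases are selenium enzymes that reduce peroxides at the expense of glutathione. They were the class whose 5 probe sets (4 genes) all had positive changes. Of these 2 passed, where 3.47% of all probe sets were called higher. The further peroxidases Gpx7 and Gpx8, not on the member list, did not pass, at 0.06 (adjusted p = 0.711) and -0.14 (adjusted p = 0.442). Gpx3, the secreted plasma form that the proximal tubule is known to supply, was at 14.42, 14.17 and 14.18 in S and at 14.69, 14.63 and 14.66 in congenic rats, a rise of 0.40 ± 0.08 (SE, adjusted p = 0.0337). Gpx2, the gastrointestinal form, was at 9.48, 9.36 and 9.46 in S and at 9.68, 9.82 and 9.93 in congenic rats, a rise of 0.37 ± 0.08 (SE, adjusted p = 0.0377). In both genes all congenic values were above all S values, which is no separate support, since they were picked by adjusted p. Leaving out S rat 2 put Gpx3 at 0.36 (adjusted p = 0.0634) and Gpx2 at 0.34 (adjusted p = 0.0744). The RNA quality fit put Gpx3 at 0.23 and Gpx2 at 0.16.

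Gpx1, the main cytosolic form, was at 13.61, 13.17 and 13.43 in S and at 13.73, 13.76 and 13.77 in congenic rats (change 0.35, adjusted p = 0.0849). Gpx4, which reduces lipid peroxides within membranes, had a change of 0.36 at its brighter probe set (adjusted p = 0.18) and of 0.16 at the dimmer (adjusted p = 0.199). S rat 2 was the lowest of all rats for Gpx1 and for the brighter probe set of Gpx4, and in the RNA quality fit those changes were -0.10 and -0.34. Gpx3 is the only member on chromosome 10, the chromosome of the LEW segment. In RefSeq order 564 protein-coding genes lie between Gpx3 and Rffl, the ubiquitin ligase gene known from work on this segment. Whether Gpx3 lies within the segment, and whether LEW and S differ in sequence under its probes, was not analysed here.

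The glutathione transferases attach glutathione to electrophiles. Of their 10 probe sets 3 fell and 7 did not pass, where 2.53% of all probe sets were called lower. The class median was -0.19, and that of all probe sets -0.02. Gsta3, of the alpha class, was at 8.99, 9.30 and 9.17 in S and at 8.57, 8.41 and 8.37 in congenic rats, a fall of 0.71 ± 0.10 (SE, adjusted p = 0.0179). This was the largest change among the members' brightest probe sets that passed. Gsta4, which clears aldehydes from lipid peroxidation, was at 12.48, 12.69 and 12.55 in S and at 12.32, 12.24 and 12.24 in congenic rats (change -0.30 ± 0.07 SE, adjusted p = 0.0495). Gstk1, the kappa form of mitochondria and peroxisomes, was at 11.20, 11.27 and 11.24 in S and at 11.05, 10.86 and 10.92 in congenic rats (change -0.29 ± 0.07 SE, adjusted p = 0.0492).

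In these 3 transferases every congenic value was below every S value, which is no separate support, since they were picked by adjusted p. Gsta4 and Gstk1 passed narrowly. Leaving out S rat 2 put Gsta4 at -0.25 (adjusted p = 0.0955) and Gstk1 at -0.28 (adjusted p = 0.0966). In the RNA quality fit Gsta3 was at -0.33, Gstk1 at -0.14 and Gsta4 at -0.06. Alpha and mu transferases are families of close relatives, and symbols of the rat genes have been reassigned over time (Gsta3 and Gstm3 each share former names with other family members), so a probe set may also read a relative.

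Among the transferases that did not pass, Gstp1, the pi form, was at 13.47, 13.55 and 13.61 in S and at 13.23, 13.34 and 13.39 in congenic rats (change -0.22, adjusted p = 0.0977). Gstt1, of the theta class, stood at -0.23 (adjusted p = 0.0691) and Mgst1, the microsomal form, at -0.15 (adjusted p = 0.166). All 3 were below S in every congenic rat, as at 18.4% of all probe sets, while Gstm1 and Gstm2 were above (12.7% of all). The 4 mu class genes were split in sign and none passed. Gstm1 was at 10.33, 9.56 and 9.83 in S and at 10.45, 10.35 and 10.54 in congenic rats (change 0.54, adjusted p = 0.0925), Gstm2 stood at 0.18, Gstm3 at 0.05 and Gstm4 at -0.09. In the RNA quality fit all 4 were negative, from -0.13 (Gstm1) to -0.03 (Gstm4), as were all 10 transferase probe sets. The difference between the classes was not tested.

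None of the 7 thioredoxin and peroxiredoxin probe sets passed in limma's test, and 3 had an unadjusted p under 0.05 (25.4% of all did). Txnrd1, the cytosolic reductase that keeps thioredoxin active, was read by 2 probe sets that differed. The dimmer (1386958_at) was at 9.67, 8.68 and 9.19 in S and at 9.74, 10.02 and 10.04 in congenic rats (change 0.76 ± 0.22 SE, adjusted p = 0.0715). The brighter (1398791_at) was at 10.81, 10.71 and 10.82 in S and at 10.62, 10.67 and 10.71 in congenic rats (change -0.11 ± 0.07 SE, adjusted p = 0.328). S rat 2 was the lowest of all rats at the first, whose change in the RNA quality fit was -0.33.

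Txn1, thioredoxin itself, was at 13.62, 13.50 and 13.55 in S and at 13.58, 13.67 and 13.64 in congenic rats (change 0.07, adjusted p = 0.546). Srxn1, which repairs over-oxidised peroxiredoxins, stood at -0.04 at its brightest probe set and at 0.05 and 0.45 at its dim ones (adjusted p from 0.0645 to 0.862). Prdx6, a peroxiredoxin with phospholipase activity, was at 12.24, 11.86 and 12.06 in S and at 12.26, 12.34 and 12.37 in congenic rats (change 0.27, adjusted p = 0.123). S rat 2 was the lowest S rat at all 7 probe sets of this class.

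**Figure D3:**
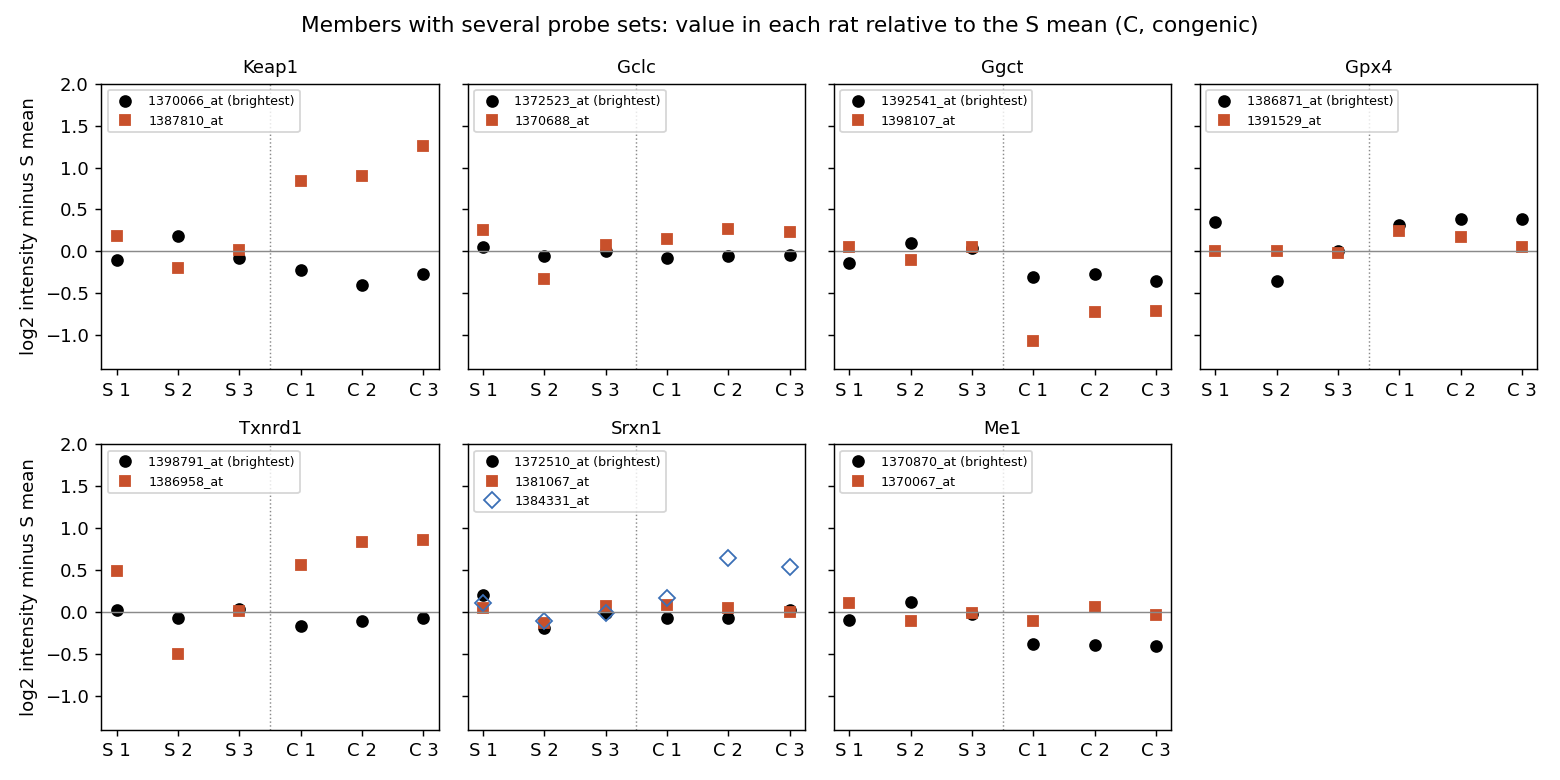
Log2 intensity minus the S mean (y axis) in each of the 6 rats (x axis) for the 7 members with several probe sets, with a symbol and colour for each probe set. The probe sets of Keap1 and Txnrd1 part in the congenic rats, those of Ggct both lie below 0 there, and for Me1 only the brightest does so in all 3.

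The enzymes that supply NADPH, the electron source of both reductases, gave 1 call in 5 probe sets (6.00% of all probe sets passed). Me1, the cytosolic malic enzyme, was at 11.57, 11.78 and 11.64 in S and at 11.28, 11.27 and 11.26 in congenic rats at its brighter probe set (1370870_at), a fall of 0.39 ± 0.07 (SE, adjusted p = 0.0292). The congenic values were nearly equal and all below S. Its other probe set (1370067_at) was at 11.22, 11.01 and 11.10 in S and at 11.01, 11.17 and 11.08 in congenic rats, with overlap and a change of -0.02 (adjusted p = 0.902), so the fall of Me1 was seen at 1 of 2 probe sets. In the RNA quality fit the brighter stood at -0.17 and the other at -0.29.

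The pentose phosphate enzymes did not pass. Pgd, the second dehydrogenase of that route, stood at -0.07, and the non-oxidative enzymes Taldo1 and Tkt at -0.08 and 0.0024 (adjusted p from 0.505 to 0.99). Tkt was at 11.84, 11.88 and 11.77 in S and at 11.87, 11.73 and 11.89 in congenic rats, and the 95% interval of its change ran from -0.16 to 0.16.

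No call was made among the 3 genes of glucuronate supply and conjugate export, where limma gave 0 an unadjusted p under 0.05. Ugdh, which makes UDP-glucuronate, was at 11.91, 11.69 and 11.78 in S and at 11.70, 11.67 and 11.74 in congenic rats. Abcc2, the apical export pump for conjugates, was at 7.51, 7.51 and 7.38 in S and at 7.51, 7.46 and 7.69 in congenic rats, and the organic anion pump Abcc4 stood at 0.04. All 3 overlapped between groups, with changes from -0.09 to 0.09.

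The scavengers of superoxide and hydrogen peroxide did not pass either. In limma 2 of 3 had an unadjusted p under 0.05, against 25.4% of all probe sets. Sod1, the copper-zinc dismutase of the cytosol, was at 14.04, 14.15 and 14.02 in S and at 13.97, 13.95 and 14.00 in congenic rats (change -0.10, adjusted p = 0.402). Sod2, the manganese form of mitochondria, was at 12.02, 11.75 and 11.87 in S and at 12.11, 12.18 and 12.09 in congenic rats (change 0.25, adjusted p = 0.105). Cat, the peroxisomal catalase, stood at -0.16 (adjusted p = 0.153). In each of the 3 the groups did not overlap, as at 30 of all 48 member probe sets (62.5%, against 31.2% of all probe sets). Of these 11 had congenic rats above (12.7% of all) and 19 below (18.4% of all).

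**Figure D4:**
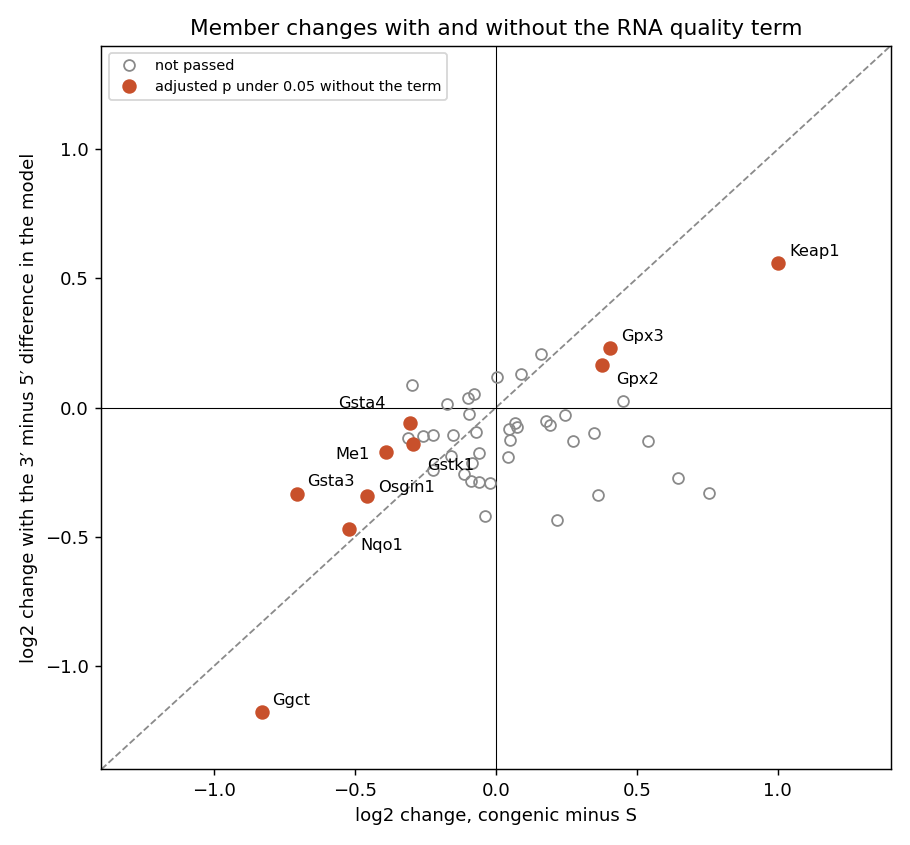
Log2 change (congenic minus S) of the 48 member probe sets without (x axis) and with (y axis) the RNA quality gap as a term in the fit; filled points passed without the term and the dashed line marks equal values. All 10 filled points stay on their side of 0, with Ggct at -1.18 and Nqo1 at -0.47 on the y axis, while 19 of 38 open points change sign. The filled points were picked for changes large against their error.

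Other genes of the same pathways gave few calls. Of 77 listed, 68 were measured with a probe set of their own, and by the brightest probe set 4 passed, 2 higher and 2 lower (5.88%), close to the 4.79% of all genes. The 8 genes of NRF2 regulation, among them Bach1, Mafg, Cul3 and Sqstm1, gave 0 calls in limma, with 1 at an unadjusted p under 0.05. The 13 other transferases also gave 0, with 3 at an unadjusted p under 0.05, as did the 12 other thioredoxin and peroxide genes, also with 3. Over all genes limma gave 25.6% an unadjusted p under 0.05.

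Dpep1, the brush-border dipeptidase that splits the product of Ggt1, was at 8.61, 8.55 and 8.66 in S and at 9.09, 9.03 and 9.26 in congenic rats, a rise of 0.52 ± 0.08 (SE, adjusted p = 0.0202). Another of its 3 probe sets rose by 0.56 (adjusted p = 0.0282), and the dimmest stood at 0.33 (adjusted p = 0.0748). Slc3a2, the heavy chain that partners Slc7a11 and other amino acid transporters, was at 11.12, 10.81 and 10.88 in S and at 11.44, 11.31 and 11.39 in congenic rats, a rise of 0.45 ± 0.09 (SE, adjusted p = 0.0340). In both genes the groups did not overlap, which is no separate support, since they were named because they passed.

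Blvra, the reductase that turns biliverdin into bilirubin after Hmox1, fell by 0.41 ± 0.08 (SE, adjusted p = 0.0321). Cbr3, a carbonyl reductase, fell by 0.33 ± 0.08 (SE, adjusted p = 0.0450). A dimmer probe set rose for Glrx, glutaredoxin (0.54, adjusted p = 0.0137), and for Sesn1, a sestrin (0.47, adjusted p = 0.0208), while the brightest stood at 0.06 (adjusted p = 0.705) and 0.38 (adjusted p = 0.245). The RNA quality fit put Dpep1 at 0.44 and 0.86 (the probe sets in the order given), Slc3a2 at 0.23, Cbr3 at -0.38 and Blvra at -0.14, and none passed. None of the 68 passed in limma when S rat 3 or any 1 congenic rat was left out.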

How the data were processed

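Kidney RNA of 6 rats (3 S, 3 congenic) was labelled with biotin and hybridised to Affymetrix arrays, per the labels' protocols. The deposited values are log2 probe set intensities between 3.76 and 15.1. The method that made them is not given in the sources used here, and array medians lay between 7.48 and 7.51. Per the series' design text the submitters used Benjamini-Hochberg adjustment in R 2.8.1.

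Of 31099 probe sets, 57 controls were left out. Names came from the platform annotation, updated by Entrez identifier to RefSeq (GRCr8): 20826 probe sets had 1 symbol (20758 matched RefSeq), 436 several and 9780 none listed. Groups and rat numbers came from sample titles. All 31042 probe sets were fitted together in R 4.3.3 by the lmFit and eBayes functions of limma 3.58.1 (two-sided, Benjamini-Hochberg over all, adjusted p under 0.05, 4 residual degrees of freedom). The smallest change that can pass is limited by the number of arrays. Values are means over 3 rats, with SE from the fit. The fit was tested on simulated data with independent noise at each probe set and no RNA quality difference. It recovered 52.2% of log2 changes of 0.5, 86.6% of those of 1 and 98.5% of those of 2. Correlations between arrays were 0.985 to 0.998.

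All members are named. Values in each rat are given for called members, for the largest change and brightest member of each class, and for Nfe2l2, Keap1 and Nqo1, and for a few others chosen after their values were seen. Called pathway genes are named. Members and lists were chosen with earlier results of these data known. Alternatives were other normalizations, a filter dropping the dimmest 40%, other variance models, rat number as a block, the RNA quality term, other probe sets and each rat left out. Figures used matplotlib 3.10.9.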

Additional observations from a re-analysis of the deposited data

How the results depend on the processing

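All 10 called members kept their direction under every alternative run (9 of 9 when dim probe sets were dropped, which removed the dim Keap1 probe set). This is no separate support, since they were picked for changes large against their error. Some alternatives also leave the change itself as it was, and leaving out a rat cannot turn groups that do not overlap. The counts of called member probe sets (10), member genes (8), pathway genes (4) and all probe sets (1862) stayed within 1.5 times under quantile normalization, median centring, the dim filter and robust eBayes. An intensity trend gave 16 member probe sets (8.58% of all probe sets passed) and 14 member genes. Array weights gave 24, 20, 13 and 6077 (19.6% of all). The rat number as a block gave 5, 3, 2 and 658. Same-numbered rats did not deviate together (correlations of deviations -0.01, -0.18 and -0.14), and 0 of 6 rats correlated best with its own number. Each cage held a rat of each strain, but the labels do not say that the numbers mark cages. The main fit took no pairs, and so few rats cannot settle whether the numbers are pairs. The RNA quality term gave 0 in each, with 8 member probe sets and 2292 of all probe sets at an unadjusted p under 0.05 (limma). At an adjusted p of 0.10, 20 member probe sets passed (14.4% of all). Leaving out each rat gave 0 to 21 member probe sets, 0 to 17 member genes, 0 to 10 pathway genes and 0 to 4752 probe sets. The member median of -0.08 was -0.11 with the RNA quality term, -0.029 with the most variable probe sets, and -0.08 to -0.06 with each rat left out. The cause of these shifts was not tested.

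Signs turned only at member probe sets that did not pass, and those that passed had been picked for changes large against their error. In the RNA quality fit the changes of opposite sign were Nfe2l2 -0.069, Keap1 1370066_at 0.089, Slc7a11 -0.058, Gclc 1370688_at -0.43, Gsr -0.27, Ggt1 0.015, Gpx1 -0.099, Gpx4 1386871_at -0.34, Gstm1 -0.13, Gstm2 -0.050, Gstm3 -0.084, Txn1 -0.076, Txnrd1 1386958_at -0.33, Srxn1 1381067_at -0.13, Prdx6 -0.13, Taldo1 0.053, Abcc4 -0.19, Sod1 0.036 and Sod2 -0.028. Under quantile normalization Tkt was at -0.022, and under median centring Tkt was at -0.011. Under array weights Slc7a11 was at -0.0078 and Srxn1 1381067_at was at -0.013. With each rat left out the changes ran for Srxn1 1372510_at from -0.13 to 0.063, Me1 1370067_at from -0.073 to 0.032, Srxn1 1381067_at from -0.014 to 0.086, Abcc4 from -0.020 to 0.14, Tkt from -0.028 to 0.050 and Slc7a11 from -0.013 to 0.15. No detection call was used, so the dim values carry no lower limit of their own.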

Other observations

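Several listed genes were read only by probe sets that the annotation gives to more than 1 gene. The probe set shared by Gsta5 and Gsta2, alpha class transferases, fell by 0.27 ± 0.06 (SE, limma, adjusted p = 0.0413), from 13.21, 13.16 and 13.15 in S to 12.93, 12.90 and 12.87 in congenic rats, with no overlap, and the RNA quality fit gave -0.30. The probe set shared by Prdx1 and Prdx1l1 stood at 0.04 (adjusted p = 0.806). Ferritin chains, which store iron and are known NRF2 targets, stood at -0.02 for the light chain gene Ftl1 and its relatives (adjusted p = 0.912) and at 0.05 for the heavy chain gene Fth1 and its pseudogene (adjusted p = 0.662). The shared Ugt1a probe sets, for glucuronosyltransferases, stood at -0.11 and 0.45 (adjusted p = 0.433 and adjusted p = 0.135).

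Because the member peroxidases contain selenium, 15 other selenium genes were listed after their values could be seen, and 14 of them had a probe set. None of the 14 passed in limma at its brightest probe set, with 6 at an unadjusted p under 0.05 (42.9%, against 25.6% of all genes). Selenos, a membrane protein of the endoplasmic reticulum, stood at 0.57 (adjusted p = 0.0694), Selenof at 0.32 (adjusted p = 0.0635) and Selenow at 0.27 (adjusted p = 0.0789). Selenop, the plasma selenium carrier, stood at 0.16 (adjusted p = 0.145) and Dio1, a deiodinase, at -0.20 (adjusted p = 0.137). A dimmer probe set of Selenot rose by 0.38 (adjusted p = 0.0422), while its brightest stood at 0.01 (adjusted p = 0.941). The median change of the 14 was 0.06, and -0.02 in the RNA quality fit.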
